A study of Mus musculus with 3 samples.

Results

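The p53 target genes examined in the fusing mouse palate were 10 genes that the transcription factor p53 is known to switch on, namely Cdkn1a, Pmaip1, Ccng1, Mdm2, Bbc3, Bax, Trp53inp1, Phlda3, Sesn2 and Plk2. They were listed by name, with earlier results of these data known, and every probe set that names one of them was read on each array. Probe sets were found for 9 of the 10 genes, 17 of the 45037 probe sets and 9 of the 18193 genes on the array, and 15 of the 17 were above the floor of the array on at least 1 array. No probe set was named for Bax here, so Bax was not analysed. Palates came from ICR mouse fetuses, labelled female, at E14. The maxillary part was grown as an explant in suspension in oxygenated BGJB medium with penicillin and streptomycin, which the tissue of all 3 stages shared. RNA was taken before fusion, during fusion and after fusion, at 5, 24 and 60 h of culture, with 1 Affymetrix mouse GeneChip per stage and no array of palate that had not been cultured. The shelf edge was dissected at the first stage and midline tissue at the later ones, so stage, hours in culture and the piece dissected cannot be told apart.

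p53 is a transcription factor held at a low level by the ubiquitin ligase Mdm2 and stabilised by DNA damage and other stress. Its targets stop the cell cycle, promote apoptosis, limit growth signaling and feed back on p53 itself, and many of them also respond to other factors. During palatal fusion the 2 shelves meet, and the epithelial seam between them is lost, in part through apoptosis. p53 is regulated largely as a protein, which these arrays do not measure.

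p53 binds a response element made of 2 copies of a decamer, a palindromic pattern of 10 bases, joined directly or by a short spacer. The decamer was searched for in RefSeq promoter windows of 300 bases, from 250 before to 50 after each annotated start. It was found in 2745 of 32851 windows (8.36%), and a full element with a spacer of at most 13 bases in 24 (0.0731%). Since the decamer is a palindrome, 1 search covers both strands. For the members 11 windows of 8 of the 10 genes were searched, and Trp53inp1 and Pmaip1 were not searched. The choice of member windows left out a chromosome that the count over all windows kept. Of the 11 windows 4 held a decamer, those of Cdkn1a, Mdm2, Ccng1 and Bax. The upstream sequences of the first 3 are shown because they hold a decamer and each of these genes has 2 or more probe sets that read past 2-fold higher at both later stages. Capitals mark the decamers, and each sequence runs 5′ to 3′ toward the start.
Cdkn1a (GRCm38.p6 chr17:29090729-29090978, plus strand): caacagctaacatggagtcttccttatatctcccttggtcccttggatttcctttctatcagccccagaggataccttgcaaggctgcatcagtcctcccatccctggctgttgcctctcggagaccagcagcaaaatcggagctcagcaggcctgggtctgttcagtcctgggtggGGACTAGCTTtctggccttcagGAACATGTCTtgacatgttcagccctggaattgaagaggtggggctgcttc
Mdm2 (GRCm38.p6 chr10:117710759-117711008, minus strand): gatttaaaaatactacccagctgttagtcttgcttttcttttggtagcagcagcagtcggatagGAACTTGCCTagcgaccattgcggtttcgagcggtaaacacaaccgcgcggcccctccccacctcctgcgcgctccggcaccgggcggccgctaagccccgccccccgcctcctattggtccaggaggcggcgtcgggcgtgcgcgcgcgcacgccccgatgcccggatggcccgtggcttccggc
Ccng1 (GRCm38.p6 chr11:40755310-40755536, minus strand): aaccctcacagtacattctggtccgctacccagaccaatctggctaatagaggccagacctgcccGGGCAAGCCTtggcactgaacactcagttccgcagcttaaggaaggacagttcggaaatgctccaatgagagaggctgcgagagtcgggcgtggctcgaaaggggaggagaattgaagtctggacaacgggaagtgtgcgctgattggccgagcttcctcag
The Cdkn1a sequence, upstream of the first of its 2 annotated starts, held decamers from 73 and from 51 bases before the start, with a spacer of 12 bases between them. It was the one member window with a full element by this rule. The window of the other Cdkn1a start held none. The decamers of Mdm2 and Ccng1 began 186 and 185 bases before their starts. A second rule, chosen after these sequences were seen, took 2 decamers with no spacer and at most 1 mismatch over both, and 29 of the 32851 windows (0.0883%) met it. Among the member windows it was met by Cdkn1a, from 51 bases before the start, and by Ccng1, from 195 bases before it. A match of letters is no evidence of binding in this tissue, and elements elsewhere in a gene were not searched.

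Signals were computed by the authors with MAS5 on a linear scale, and were brought here to a common trimmed mean. The floor, set on each array by 81 probe sets of odorant, vomeronasal and taste receptors, was 19.4 before, 13.3 during and 14.7 after fusion, and 56.8%, 65.6% and 61.4% of probe sets were above it. The 5′ to 3′ ratio of the Actb control probe sets, a sign of RNA quality, was 0.718, 0.713 and 0.718. With 1 array per stage there is no spread between embryos and no test between stages. The spread that can be given is the SD of the log2 ratio among probe sets of one gene, which was 0.37 between the arrays before and during fusion, 0.46 between before and after, and 0.44 between the later pair. It does not include differences between embryos or dissections.

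Transcripts of most of the p53 target genes were more abundant during and after fusion than before it. By the brightest probe set of each gene, 6 of 9 were past 2-fold higher during fusion (Cdkn1a, Pmaip1, Ccng1, Trp53inp1, Phlda3 and Mdm2), where 5.46% of all genes were. After fusion Bbc3 joined these 6, which made 7 of 9, against 12.6% of all genes. None of the 9 was past 2-fold lower at either stage, where 3.19% of all genes were lower during and 9.59% after fusion. Over the 9 genes the median log2 ratio was 1.48 during over before fusion, against -0.05 over all genes, with quartiles of -0.34 and 0.29. For after over before fusion it was 1.39, against -0.09 over all genes, with quartiles of -0.54 and 0.45. Both ratios use the same array from before fusion. In bulk tissue, a change in the number of cells of a type and a change in RNA per cell cannot be told apart.

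**Figure D1:**
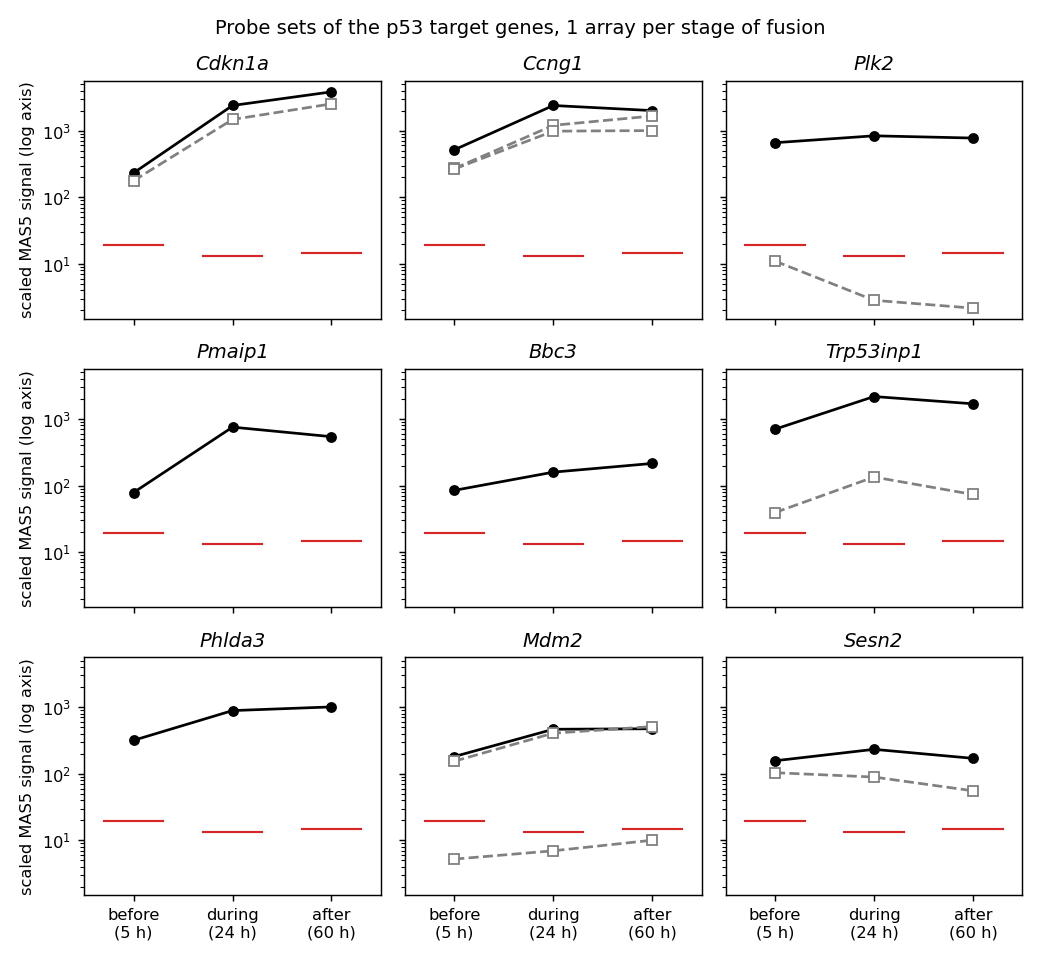
Scaled MAS5 signal (log axis) of each probe set of the 9 measured p53 target genes on the 3 arrays, from before fusion (left) to after it (right), with 1 array for each stage. Filled circles are the brightest probe set of a gene, open squares its other probe sets and red lines the floor of each array. The probe sets of Cdkn1a stand at 232 and 178 before fusion and at 3834 and 2531 after it, whereas Plk2 stays between 661 and 839.

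The genes of cell cycle arrest were far apart in size. Cdkn1a encodes p21, the inhibitor of cyclin-dependent kinases through which p53 halts the cell cycle. Its brightest probe set gave 232 before, 2392 during and 3834 after fusion as scaled signals, and the other 178, 1476 and 2531. The signals were lowest before and highest after fusion on both probe sets. The brightest probe set was thus 10.3-fold higher during and 16.5-fold higher after fusion, and the other 8.31-fold and 14.3-fold. Among the genes above the floor on both arrays, Cdkn1a ranked 18 of 12117 from the highest for during over before fusion and 48 of 11992 for after over before. Ccng1 encodes cyclin G1, which works with phosphatase 2A on Mdm2. Its 3 probe sets read 517, 271 and 266 before fusion, 2392, 1205 and 985 during fusion, and 2006, 1662 and 1005 after it. They were 4.63-fold, 4.45-fold and 3.70-fold higher during fusion and 3.88-fold, 6.13-fold and 3.78-fold higher after it, so that they agreed on a higher signal but not on which of the later stages was the higher. Plk2, a polo-like kinase of centriole duplication that also responds to growth factors, read 661, 839 and 776. Its ratios of 1.27 and 1.17 to the array before fusion were within the spread between probe sets, and its other probe set was under the floor on every array.

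Of the 4 members that promote apoptosis, Pmaip1, Trp53inp1 and Phlda3 were past 2-fold higher at both later stages and Bbc3 at the last one. Pmaip1 encodes Noxa, a BH3-only protein that binds and neutralises Mcl1. Its single probe set read 78.6 before, 754 during and 542 after fusion, 9.59-fold higher during and 6.89-fold higher after fusion than before. It ranked 20 of 12117 genes during over before fusion, close to Cdkn1a. Bbc3 encodes Puma, a BH3-only protein that binds all the antiapoptotic members of the Bcl2 family. It read 84.7, 159 and 215, which is 1.88-fold higher during and 2.54-fold higher after fusion. The first of these ratios is just under the 2-fold limit and the second past it. Trp53inp1 encodes a stress-induced nuclear protein that promotes p53 activity and autophagy. Its brightest probe set read 702, 2171 and 1689 and the other 39.3, 134 and 73.5. Both were highest during fusion, by 3.09-fold and 3.41-fold over before, and after fusion they were 2.41-fold and 1.87-fold higher than before. Phlda3, whose product keeps the kinase Akt from the membrane, read 318, 889 and 1009, 2.80-fold higher during and 3.18-fold higher after fusion.

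The remaining members, of feedback and metabolism, parted. Mdm2 encodes the ubiquitin ligase that targets p53 for degradation and is itself induced by p53. Its 2 probe sets above the floor read 181 and 154 before, 466 and 407 during, and 474 and 511 after fusion. They were 2.57-fold and 2.64-fold higher during and 2.61-fold and 3.31-fold higher after fusion, and its remaining probe set was under the floor on every array. Sesn2 encodes sestrin 2, which restrains the growth kinase mTORC1 and is also induced by Atf4. Its brightest probe set read 157, 233 and 171, and the other 104, 89.4 and 55.5. The first was 1.48-fold and 1.09-fold the signal before fusion, whereas the second was 0.861 of it during and 0.535 of it after fusion, which is 1.87-fold lower. The probe sets of Sesn2 therefore did not agree on a direction, and neither passed 2-fold.

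**Figure D2:**
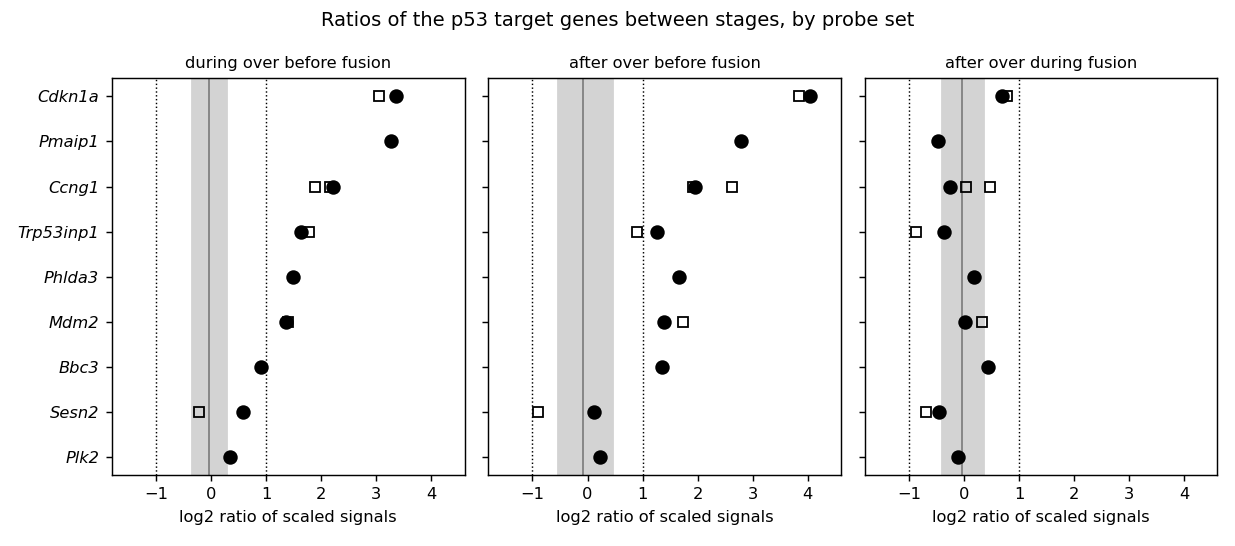
Log2 ratio of scaled signals between stages for each probe set above the floor of the 9 measured p53 target genes, 1 array per stage. Filled circles are the brightest probe set, open squares the others, dotted lines mark 2-fold, and the grey band and line are the quartiles and median over all genes. Of the 9 filled circles, 6 lie past 2-fold during over before fusion, 7 after over before and 0 after over during.

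Over the 15 probe sets above the floor, 11 were past 2-fold higher during fusion and 0 lower, against 4.73% higher and 3.23% lower over all probe sets. At the last stage the counts were again 11 and 0, against 9.71% and 10.2%. In the order of the log2 ratios during over before fusion, from Cdkn1a (3.36) and Pmaip1 (3.26) through Ccng1 (2.21), Trp53inp1 (1.63), Phlda3 (1.48) and Mdm2 (1.36) to Bbc3 (0.91), Sesn2 (0.57) and Plk2 (0.34), neighbours were apart by more than the SD between probe sets at 3 places. These were below Pmaip1, below Ccng1 and below Mdm2. A gap carries the spread of both genes, which is wider than this SD. The gap below Mdm2, 0.45 against an SD of 0.37, was the smallest of them. For after over before fusion the order ran Cdkn1a (4.04), Pmaip1 (2.79), Ccng1 (1.96), Phlda3 (1.67), Mdm2 (1.39), Bbc3 (1.34), Trp53inp1 (1.27), Plk2 (0.23) and Sesn2 (0.12). Here the gaps past the SD were those below Cdkn1a, below Pmaip1 and below Trp53inp1. The other neighbours did not differ beyond that spread.

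Between the 2 later stages the p53 target genes stayed within 2-fold. By the brightest probe set, 0 of 9 were past 2-fold higher and 0 lower after than during fusion, where 8.74% of all genes were higher and 5.08% lower. Of the 15 probe sets also 0 and 0 were, against 6.62% and 7.1% of all probe sets. The median log2 ratio was -0.11, against -0.03 over all genes, with quartiles of -0.40 and 0.36, and its sign turned under 1 of the scalings. Cdkn1a was 1.60-fold higher after than during fusion, on its other probe set 1.71-fold. Pmaip1 was 1.39-fold lower, and Sesn2 was 0.732 of its signal during fusion. The log2 ratios of these 3 genes, 0.68, -0.48 and -0.45, were the ones past the SD between probe sets, by the brightest probe set of each gene. The other 6 genes lay within it by the brightest probe set, and the signs of Mdm2 and Plk2 turned with the scaling. By other probe sets, however, Trp53inp1 at -0.87 and Ccng1 at 0.46 were past the SD. With one median Pmaip1 (-0.33) and Sesn2 (-0.30) lay within that SD and Bbc3 (0.58) was past it. Which genes passed the SD thus changed with the probe set and the scaling.

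**Figure D3:**
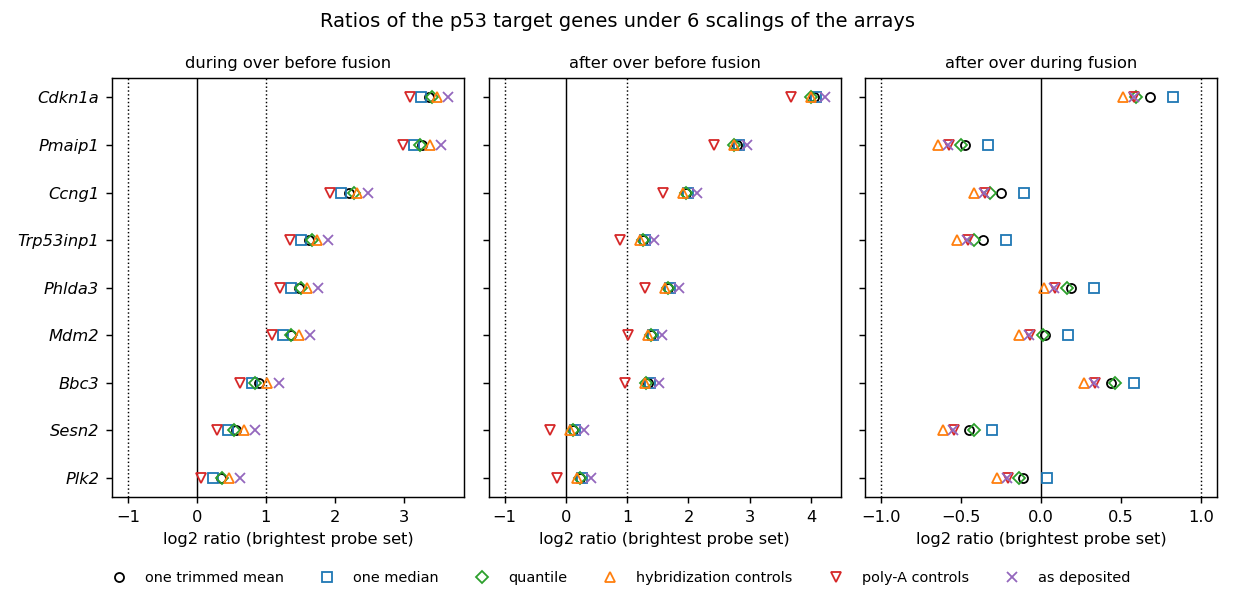
Log2 ratio of the brightest probe set of the 9 measured p53 target genes under 6 scalings of the arrays, 1 array per stage, with dotted lines at 2-fold. Cdkn1a lies between 3.09 and 3.64 during over before fusion under these scalings and Plk2 between 0.07 and 0.62.

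Apart from quantile normalization, a change of scaling moves all genes of an array together. With the added poly-A controls as the reference, the median of all genes shifted by -0.28 during over before and by -0.38 after over before fusion on the log2 scale, and with the signals as deposited by 0.28 and 0.18. Under the poly-A controls 5 rather than 7 of the 9 members were past 2-fold higher after fusion, with Bbc3 at 1.95-fold and Trp53inp1 at 1.85-fold, and the after over before log2 ratios of Sesn2 and Plk2 became -0.26 and -0.14. Under the hybridization controls and as deposited, Bbc3 passed 2-fold during fusion as well, which made 7 of 9. The share of all genes past 2-fold was not computed under these other scalings. Cdkn1a, Pmaip1, Ccng1, Phlda3 and Mdm2 stayed past 2-fold higher at both later stages under all 6 scalings.

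Other genes known as p53 targets were read from a list of 40, also made with earlier results known, of which 36 had a probe set. During fusion 15 of the 36 were past 2-fold higher and 0 lower, against 5.46% and 3.19% of all genes, at a median log2 ratio of 0.81. The same numbers held after fusion, against 12.6% and 9.59% of all genes, with a median of 0.74. Over the scalings the count of higher genes ran from 12 to 20 during and from 11 to 16 after fusion, and that of lower genes from 0 to 3 after fusion. Ephx1, the microsomal epoxide hydrolase, had the largest ratios, with signals of 33.4, 405 and 899, which is 12.1-fold higher during and 26.9-fold higher after fusion. The receptor phosphatase gene Ptprv read 47.7, 298 and 276. The death receptor gene Fas was under the floor before fusion and read 121 and then 182, which puts it at least 6.25-fold higher during fusion and at least 9.39-fold higher at the end. Eda2r, a receptor of the TNF receptor family, was also under the floor before fusion and higher by at least 5.71-fold during and at least 4.54-fold after fusion. Dcxr, a carbonyl reductase, was 4.61-fold and 6.42-fold higher. After over during fusion, Ephx1 was 2.22-fold higher, though not past 2-fold under the hybridization controls, and Apaf1, the scaffold of the apoptosome, was 0.446 of its signal. Other genes of this list were not past 2-fold, such as, chosen after their values were seen, the growth arrest gene Gadd45a at 1.35-fold and 1.54-fold and the DNA repair gene Ddb2 at 1.10-fold and 0.604 of the signal before fusion.

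Among the regulators of p53, ratios lay on both sides of 1. No probe set was named here for Trp53, the gene of p53 itself. Of the 15 listed genes 13 were above the floor, with a median log2 ratio of -0.17 during fusion whose sign turned with the scaling. Of these 13, 1 was past 2-fold higher and 0 lower during fusion, against 5.46% and 3.19% of all genes. The gene was Mdm4, the relative of Mdm2 that also holds p53 in check, with signals of 107, 261 and 139 (2.43-fold and 1.30-fold). Its 3 other probe sets were not past 2-fold higher, at 1.43-fold, 1.03-fold and, with the signal during fusion under the floor, at most 0.580 of the signal before it. After fusion 2 of the 13 regulators were past 2-fold higher and 2 lower, against 12.6% and 9.59% of all genes, with a median of -0.43. The higher ones were Trp73, a relative of p53, at 2.89-fold and the checkpoint kinase gene Chek2 at 2.03-fold. The lower ones were Chek1, at 0.458 of the signal before fusion, and Atm, the kinase of double-strand breaks, at 0.498. Over the scalings from 1 to 2 were higher and from 0 to 4 lower after fusion. Trp73 kept its call under all 6, but Chek2 was past 2-fold under 3 of them, Atm under 4 and Chek1 under 5. By their other probe sets Trp73 was at 1.76-fold and Atm at 0.608 after fusion, neither past 2-fold. Those of Chek1 above the floor were at 0.334 and 0.712, and Chek2 has 1 probe set. The called probe set of Trp73 read 29.5 before fusion, near the floor of 19.4. Paralogs of the members, a list of 14 that also holds Mdm4 of the regulators and Plk3 and Sesn1 of the other p53 targets, were read in the same way. During fusion 2 were past 2-fold higher (Mdm4 and Plk3, the latter from under the floor) and 0 lower, against 5.46% and 3.19% of all genes, with a median log2 ratio of 0.03. After fusion, by the brightest probe set, 0 were higher and 2 lower (Ccng2 at 0.480 and Phlda1 at 0.446), against 12.6% and 9.59% of all genes. The median was -0.02, and both medians changed sign with the scaling. Over the scalings from 1 to 3 were higher during fusion, and from 0 to 1 higher and 0 to 4 lower after it. Plk3 kept its call under 3 of the 6, and Ccng2 and Phlda1 lost theirs as deposited. Plk4 was 1.96-fold higher after fusion by its brightest probe set and 3.02-fold and 2.07-fold by its others, and was called higher under 2 of the 6. The other probe set of Ccng2 was at 0.545 after fusion, not past 2-fold. The kinase inhibitor genes nearest to Cdkn1a, Cdkn1b and Cdkn1c, were 0.804 and 0.938 of the signal before fusion during it and 0.890 and 0.668 after it. Against Ccng1 at 4.63-fold and 3.88-fold, Ccng2 was at 0.885 and 0.480. Against Sesn2, Sesn1, which is itself known as a p53 target, was at 1.01 and 0.619 and Sesn3 at 1.26-fold and 1.56-fold.

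**Figure D4:**
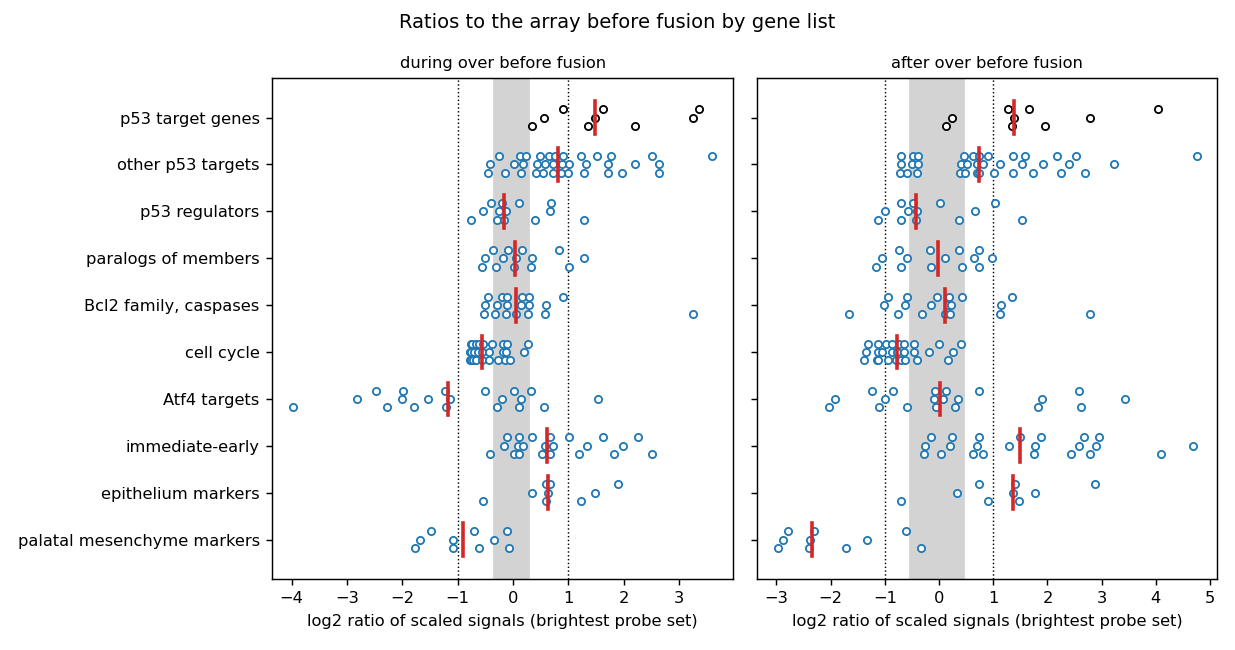
Log2 ratio to the array before fusion of the genes above the floor in 10 gene lists, by the brightest probe set, 1 array per stage. Circles are genes, red bars list medians, dotted lines 2-fold, and the grey band the quartiles over all genes. The p53 target genes have medians of 1.48 and 1.39, whereas the p53 regulators have medians of -0.17 and -0.43.

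Among 19 genes of the Bcl2 family and of caspase activation above the floor, Pmaip1 was the one gene past 2-fold higher during fusion, where 5.46% of all genes were. After fusion 4 were higher, against 12.6% of all genes. These were Pmaip1 and Bbc3 with Hrk (2.20-fold) and Bik (2.19-fold), which also encode BH3-only proteins. Bmf (0.315 of the signal before fusion) and Casp9 (0.493) were lower, against 9.59% of all genes. Over the scalings the counts ran from 1 to 4 higher and from 1 to 5 lower. Pmaip1 and Bmf kept their calls under all 6, whereas Bbc3, Hrk and Bik lost theirs under the poly-A controls and Casp9 with one median and as deposited. The partner of Noxa, Mcl1, was at 1.12-fold and 1.16-fold, and the antiapoptotic Bcl2 at 0.699 and 0.519. Cell cycle genes were mostly below their signal before fusion. Of 27 genes 0 were past 2-fold higher and 0 lower during fusion, against 5.46% and 3.19% of all genes. Under the poly-A controls 6 were lower. The median log2 ratio during fusion was -0.55. After fusion 8 were lower, against 9.59% of all genes, and 0 higher, against 12.6%, with a median of -0.78. Those with the smallest ratios after fusion were Mcm5 of the replicative helicase (0.382), the kinase gene Cdk2 (0.395), the licensing factor gene Cdc6 (0.406) and Cdk4 (0.454). The count of lower genes after fusion ran from 3 to 18 over the scalings.

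Some members also answer to other signals, and lists for these were read beside them. Of 20 targets of Atf4, a transcription factor of amino acid shortage that also acts on Sesn2, 11 were past 2-fold lower and 1 higher during fusion (median log2 ratio -1.18). Over all genes 3.19% were lower and 5.46% higher. After over during fusion 13 of the 20 were higher (median 1.40), against 8.74% of all genes. During fusion the amino acid transporter genes Slc7a3 and Slc7a5 were at 0.0637 and 0.141 of the signal before it. Sesn2 was at 1.48-fold by its brightest probe set and at 0.861 by the other. Of the immediate-early genes, which growth factors and handling of tissue induce and which include Plk2, 8 of 22 were past 2-fold higher during and 13 of 23 after fusion. Over all genes 5.46% and 12.6% were. Fos was 5.69-fold and 25.6-fold higher, and Plk2 1.27-fold and 1.17-fold. The part of these other signals in the ratios of the members was not tested.

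Markers of the cell types in the dissected tissue also moved with the stage. The summed scaled signal of 9 epithelium genes was 11691 before, 20420 during and 27744 after fusion, and that of 10 palatal mesenchyme genes 12345, 6536 and 3473, against 2932, 10295 and 10716 for the 9 p53 target genes. Of the epithelium genes 3 were past 2-fold higher during and 5 after fusion, and of the mesenchyme genes 5 and 8 were lower (from 3 to 5 during fusion over the scalings). Over all genes 5.46% were higher and 3.19% lower during fusion, and 12.6% and 9.59% after it. Markers of ciliated cells (208, 3246 and 19099, 7 of 7 higher at both stages) and of macrophages (653, 1436 and 3501, 6 of 10 and then 10 of 10 higher) were also higher later. Other lists were lower. Of 7 skeletal muscle genes 6 were past 2-fold lower during and 7 after fusion (sums 1460, 382 and 153, medians -2.01 and -2.80). Of 4 erythroid genes above the floor 2 and then 3 were (15271, 9891 and 1925, -0.93 and -3.83). Of 6 endothelial genes 3 and then 1 were (883, 459 and 496, -1.08 and -0.79). Over the scalings the lower endothelial genes ran from 1 to 5 at either stage. During fusion the lower muscle genes ran from 4 to 7 and the higher macrophage genes from 4 to 8. The higher epithelium genes ran from 2 to 3 during and from 4 to 6 after fusion. Before fusion Foxj1 of the ciliated list and Aif1 of the macrophage list were under the floor, and no marker of the epithelium, mesenchyme, ciliated and macrophage lists was under it at the later stages, whereas the muscle gene Myod1 was under it at both and Tnnt1 and the globin gene Hbb-bh1 at the last. Hba-a1 was under it on every array. After over during fusion the median log2 ratio was 0.24 for the epithelium list, -0.87 for mesenchyme, 2.55 for ciliated cells and 1.16 for macrophages. It was -1.20 for muscle, -2.56 for erythroid and 0.14 for endothelial genes, and -0.11 for the 9 p53 target genes. The part of the tissue make-up in the ratios of the p53 target genes was not tested. Perp, an adhesion gene of epithelium and a p53 target, stands in both lists, at 2.36-fold and 2.58-fold.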

How the data were processed

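Gene expression was measured on 3 Affymetrix arrays, 1 per stage of palatal fusion, grouped by the tissue label. The intensity values deposited by the authors are MAS5 signals with background correction, linear and not logged; the array images were not used here. Several palates were collected per stage, and whether RNAs were combined is not stated. The number of arrays limits the precision, and no p-value was computed.

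Of 45101 rows, 64 were controls. Of the other 45037, 34945 named 1 gene, 932 several and 9160 none; 34741 symbols were matched by gene ID to the RefSeq annotation of GRCm38.p6. Scaling was to a common trimmed mean (without the top and bottom 2%; factors 1.11, 0.918 and 0.986). Signals under the floor, the 95th percentile of 81 receptor probe sets, were raised to it; a ratio with 1 side under it is given as at least, and one with both sides under it is not given. The 4 signals of 0 were read as under the floor. A gene is represented by the probe set of highest mean scaled signal, and was called past 2-fold. The text names the members and the regulators past 2-fold. Of the paralogs it names those past 2-fold and Plk4, Cdkn1b, Cdkn1c, Sesn1 and Sesn3. The remaining regulators and paralogs are not named. From other lists it names the genes with the largest or smallest ratios past 2-fold. Gadd45a, Ddb2, Mcl1, Bcl2, Perp and the markers under the floor were added after their values were seen. Scripts ran in Python 3.11.15 with numpy 2.4.6 and pandas 2.3.3 and were tested on simulated data. Members, lists and settings were chosen with earlier results of these data known. Promoter sequences came from RefSeq windows; windows within gene bodies are not shown. Alternatives covered the floor, the scaling, the probe set of a gene and the threshold.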

Additional observations from a re-analysis of the deposited data

How the results depend on the processing

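The numbers of p53 target genes past the limit moved with the threshold. At 4-fold 3 members were higher during than before fusion and 2 after, and at 1.5-fold 1 (Cdkn1a) was higher after than during fusion. The shares of all genes past 4-fold and 1.5-fold were not computed, so these counts have no share to be read against. Under the other floors, scalings and probe set rules the numbers at 2-fold were from 6 to 7 during and from 5 to 7 after fusion, and none was past 2-fold lower. The medians ran from 1.21 to 1.76 during over before fusion, from 1.01 to 1.56 after over before and from -0.28 to 0.03 after over during on the log2 scale. Of 81 single-gene values in each comparison, 80, 80 and 81 moved by less than the SD between probe sets. The exceptions were those of Sesn2 by the median over its probe sets, 0.18 during and -0.39 after fusion, where its 2 probe sets differ. Most of these values could not have moved further. The members kept their values without a floor and with the floor at each array's median. Scalings by 1 factor per array shifted all genes by at most 0.28, -0.38 and -0.17, less than the SD. The counts are therefore no measure of stability. Scaling to one median shifted all genes by -0.11 during over before and 0.14 after over during fusion, and the hybridization controls by 0.12 and -0.17. No paired analysis was possible because each stage has 1 array, and none could be left out. Signals near the floor, such as those of Fas and Eda2r before fusion, give bounds alone.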
